A study of Drosophila melanogaster with 39 samples.

Results

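The genes described here are the chemosensory receptor genes of Drosophila melanogaster measured in testis RNA. They were chosen by name, as the symbols in the deposited tables that begin with Or, Gr or Ir followed directly by a digit. The rule gave 177 of the 13659 genes: 58 odorant receptors (Or), 59 gustatory receptors (Gr) and 60 ionotropic receptors (Ir). Each was listed in a table of bulk testis and in a table of sorted spermatocytes.

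Odorant and gustatory receptors are membrane proteins of insect sensory neurons that form ligand-gated ion channels. Odorant receptors work together with the coreceptor Orco, and a sensory neuron usually expresses few of the tuning receptors. Ionotropic receptors descend from ionotropic glutamate receptors and pair with the broadly expressed coreceptors Ir25a, Ir8a and Ir76b. They serve smell, taste and the sensing of temperature and humidity. The testis is not a classical sensory organ, although odorant receptor transcripts have been found in testes of other insects.

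Bulk testes came from 1 to 3 day old males of 7 groups with 3 libraries each. The mutants were transheterozygous for Cdc73L (TH1), Ctr9L (TH2), Leo1L (TH1), Leo1L (TH1) from the inverted cross, and Paf1L (TH2), and the controls were w1118 iso and w1118. The mutated genes are testis-expressed relatives of the PAF1 complex genes; the PAF1 complex travels with elongating RNA polymerase II. Spermatocytes, the male germ cells that grow and enter meiosis, were sorted at a purity of at least 85% from Leo1L FS1 and Paf1L FS1 homozygous mutants and from a w1118 control. All sorted flies, controls included, carried a GFP-tagged copy of Cdc73L at its own locus. Each of the 9 sorted columns joined 2 libraries, of which 1 had been depleted of ribosomal RNA, so a group had 3 columns. The stock from which each mutant allele came was not given, so differences of allele and of genetic background cannot be told apart.

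The values are called signal here: normalized expression per gene, scaled for library size and not divided by gene length. Judged from the smallest steps between values, the approximate depth was 8.68 to 12.78 M reads per bulk library and 7.98 to 20.86 M per sorted column. A signal of 1 stood for about 8.0 to 13.3 reads in bulk and 7.8 to 20.7 reads in sorted columns. The levels of the mutated genes checked the labels, except that Cdc73L itself is not analysed here and the Cdc73L label was not checked this way. Leo1L (CG10887) read 15.5 to 18.2 in the 6 bulk Leo1L libraries against 53.7 to 70 in controls, Ctr9L (CG9899) 9.91 to 10.7 in its mutant against 107 to 127, and Paf1L (CG12674) 2.84 to 6.67 in its mutant against 47.6 to 59.7. In sorted cells Leo1L read 6.18 to 8.2 in its mutant against 17 to 23.1, and Paf1L 0.74 to 1.28 in its mutant against 17 to 27.7. All 19 spermatocyte markers had a group mean of at least 1 in every bulk group, and 18 or 19 of them did in the sorted groups. Accessory gland transcripts, which come from tissue attached to the testis, varied between bulk libraries. An accessory gland score, averaging log2(signal + 1) over 14 genes, was under 2 in 4 libraries (1.13 and 1.28 in Cdc73L replicates 1 and 2, 1.13 in Leo1L inverted replicate 3, 1.73 in Paf1L replicate 1) and 3.60 to 5.52 in the controls.

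Most receptor genes were near the limit of measurement. A receptor counted as detected in a group when its mean signal was at least 1. In bulk testis, 41 of the 177 receptors (23.2%) were detected in at least 1 of the 7 groups, against 83.8% of all genes. In sorted spermatocytes, 43 (24.3%) were detected in at least 1 of the 3 groups, against 73.7% of all genes. The detected receptors were 14 Or, 8 Gr and 19 Ir genes in bulk and 13 Or, 9 Gr and 21 Ir genes in sorted cells. Both tables shared 33 of them, 8 were detected in bulk only, 10 in sorted cells only, and 126 in neither. The median receptor had a mean signal of 0.124 in the 6 bulk controls and 0.0986 in sorted controls, against 14.8 and 4.4 for the median gene. At these depths the medians stand for 1 or 2 reads.

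The number of detected receptors was highest in the Leo1L and Paf1L groups. In bulk it was 24 in Cdc73L, 24 in Ctr9L, 31 in Leo1L, 32 in Leo1L inverted and 32 in Paf1L, against 25 in w1118 iso and 21 in w1118. In sorted spermatocytes it was 33 in Leo1L and 35 in Paf1L, against 26 in controls. Over all genes the share detected was 77.9% to 80.6% in bulk mutants against 78.9% and 80.2% in w1118 iso and w1118. In sorted cells it was 68.0% in Leo1L and 71.4% in Paf1L against 66.2% in controls. Sorted Paf1L replicate 2 stood apart in genes of other cell types: it read 417 for Obp44a and 18.6 for moody, a glia gene, against at most 65.5 and 3.86 in the other sorted mutant columns and at most 23 and 1.03 in sorted controls. Glia genes averaged 3.74 there on the log2(signal + 1) scale, 2.29 to 2.93 in the other mutant columns and 2.25 to 2.52 in controls. Without that column 39 receptors were detected in sorted Paf1L. In bulk, 13 receptors were detected in a mutant group and in neither control group, against 3 the other way round, with 5 mutant groups set against 2 control groups. In sorted cells these numbers were 17 and 5, with 2 mutant groups set against 1. The matching counts over all genes are not given here, so no excess particular to the receptors is read from these numbers. The limit lay in the dense part of the distribution: Or83c (1.12), Ir100a (1.15) and Or65a (1.16) passed it narrowly by their highest bulk group mean, and Ir94b (0.981), Or19b (0.97) and Gr22f (0.949) narrowly missed it. In sorted cells Or85f (1.02), Ir40a (1.05) and Ir60b (1.13) lay just inside, and Gr93c (0.984), Gr23a (0.98) and Ir52d (0.965) just outside.

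**Figure D1:**
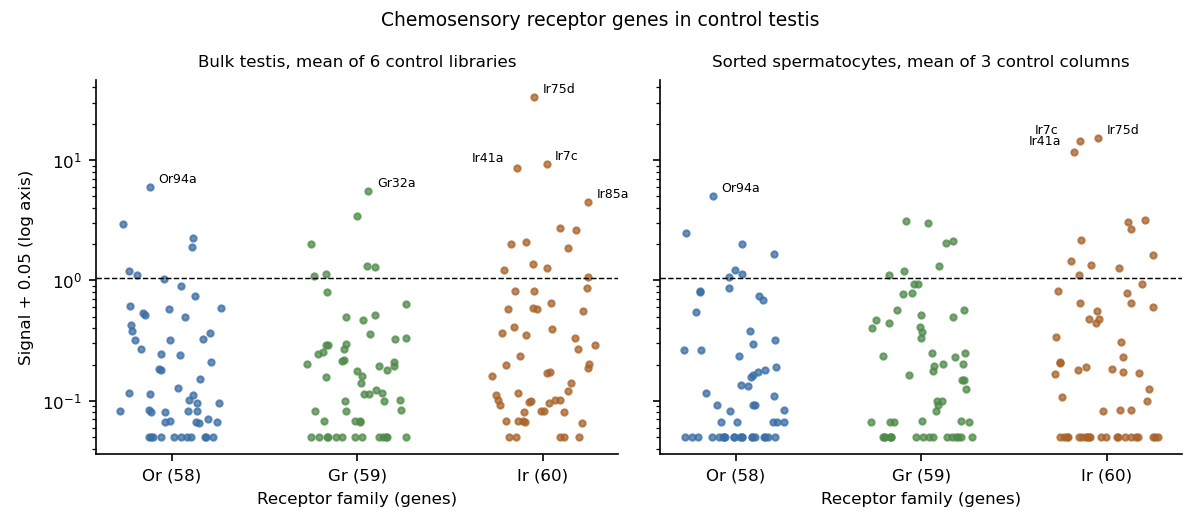
Mean signal of each of the 177 receptor genes in the 6 bulk control libraries (left) and the 3 sorted control columns (right), by family, on a log axis after adding 0.05; the dashed line marks the detection limit of 1. Most points lie under the limit, and Ir75d, Ir7c and Ir41a stand highest in both panels.

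Together the receptors made up 0.0126% to 0.0177% of the signal in bulk mutant libraries, against 0.0117% to 0.0133% in controls. In sorted columns they made up 0.0142% to 0.0195% in mutants, against 0.0106% to 0.0115% in controls. Without Ir75d, which shares most of its sequence with another gene as described below, their summed signal was 119 to 121 in Leo1L, 107 to 123 in Leo1L inverted and 113 to 125 in Paf1L, against 82.9 to 102 in the 6 controls. It was 93.7 to 102 in Cdc73L and 91.1 to 97.8 in Ctr9L. In sorted cells it was 123 to 128 in Leo1L and 144 to 159 in Paf1L (153 and 159 without replicate 2), against 84.8 to 107 in controls. The Leo1L and Paf1L groups thus lay above all controls in both tables, and the Cdc73L and Ctr9L groups overlapped them. Of the receptors, 159 were called in none of the main comparisons below. Most of them were too low to be tested there, and some passed when genes of low signal were tested too. Their sum in bulk controls was 49.8 to 61.3. In the bulk mutants it was 65.2 to 68.6 in Leo1L, 56.3 to 67.4 in Leo1L inverted and 61.1 to 66.2 in Paf1L. In sorted cells that sum was 61.5 to 69.1 in Leo1L and 72.6 to 78.7 in Paf1L, against 53.7 to 66.7 in controls.

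The 6 receptors of highest mean bulk signal were Ir75d, Ir7c, Ir41a, Or94a, Gr32a and Ir85a. Ir75d, an olfactory receptor of antennal neurons, averaged 33.3 ± 5.5 in the 6 bulk controls (SD). Its reading is uncertain: at 3L:18908260-18911182 on the minus strand, 2098 of its exon bases (90.7%) are also exon bases of COX6AL2, a cytochrome c oxidase subunit gene on the same strand, and 505 (21.8%) overlap exons of Prp6, a splicing factor gene, on the opposite strand. COX6AL2 read 255 to 330.4 in the same libraries. Ir7c, known as a taste receptor for high salt, averaged 9.17 ± 1.41 in bulk controls (n = 6) and 14.4 ± 2 in sorted controls (n = 3), and no annotated gene overlaps it. Ir41a, an olfactory receptor for amines, averaged 8.45 ± 1.23 and 11.7 ± 2.35 in the same groups and likewise overlaps no annotated gene. Per kilobase of the longest transcript, the bulk control signal was 14.4 for Ir75d, 5.1 for Or94a, 3.89 for Ir7c, 3.6 for Ir41a, 3.37 for Gr32a and 2.06 for Ir85a. In sorted controls the per-kilobase signal was 6.52 for Ir75d, 6.1 for Ir7c, 4.98 for Ir41a and 4.29 for Or94a.

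Receptors detected in bulk were not always detected in sorted cells. Gr59f read 0.625 to 3.51 over the 21 bulk libraries, and Ir62a 0.997 to 3.44. In sorted columns Gr59f read 0 to 1.17 and Ir62a 0 to 1.06, with group means under 1, although the tables were normalized separately. Or59b and Or59c were detected in every bulk group except Cdc73L and in no sorted group.

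The coreceptors were unevenly represented. Ir25a, the most widely shared ionotropic coreceptor, averaged 1.82 ± 0.329 in bulk controls (n = 6) and 2.63 ± 0.236 in sorted controls (n = 3). Ir76b had group means of 0.155 to 0.938 in bulk and reached 1.24 ± 0.985 in sorted Paf1L columns, against 0.13 ± 0.225 in sorted controls (n = 3 each); its highest sorted column read 2.34. Ir8a read at most 0.563 in bulk and at most 0.0952 in sorted columns, and in sorted cells every value lay under that of 3 reads (0.145 to 0.383). Orco, which the naming rule leaves out, read 0.527 to 1.9 in bulk and 0.726 to 3.66 in sorted columns. It did not pass the test in any mutant, with log2 fold changes of -0.01 to 0.30.

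Differences were fitted with limma to log2(signal + 1), a scale on which the change of a low gene appears too small. A receptor whose Benjamini-Hochberg adjusted p was under 0.05 is called raised or lowered. The test took the genes that averaged 1 or more across a table's libraries: 27 receptors among 10925 genes in bulk, and 34 among 9495 in sorted cells. Of these, 4 in bulk and 12 in sorted cells had a control mean under 1 and so passed the filter through the mutants, which tilts a count of raised receptors upward. In bulk testis the receptors raised were 4 of 27 in Cdc73L (10.4% of all genes tested were raised), 3 in Ctr9L (12.0%), 6 in Leo1L (15.4%), 7 in Leo1L inverted (15.8%) and 7 in Paf1L (13.8%). Receptors lowered were 0, 0, 0, 1 and 1 in that order (12.6%, 10.8%, 15.1%, 15.9% and 15.0% of all genes). At a log2 fold change of at least 1 as well, 0, 0, 3, 3 and 4 receptors were raised, where 0.357%, 0.421%, 1.25%, 0.943% and 1.11% of all genes were. In sorted spermatocytes 7 of 34 receptors changed in Leo1L (16.5% of all genes), with 7 raised and 0 lowered (6.95% of all genes were lowered). In Paf1L 12 of 34 changed (25.4%), with 10 raised and 2 lowered (12.3% of all genes were lowered). With the fold change limit, 6 and 8 were raised (3.35% and 6.36%). Without sorted Paf1L replicate 2, 9 receptors changed in Paf1L. For this setting and the next, no share over all genes is given. Under quantile normalization the split of raised to lowered became 6 and 2 in bulk Leo1L, 9 and 0 in Leo1L inverted, 7 and 0 in bulk Paf1L, and 6 and 3 in sorted Paf1L. The median log2 fold change of the tested receptors was 0.18 in Cdc73L, 0.04 in Ctr9L, 0.21 in Leo1L, 0.15 in Leo1L inverted and 0.18 in Paf1L, with medians over all tested genes of -0.00 to 0.03. In sorted cells it was 0.41 in Leo1L and 0.35 in Paf1L, with 0.02 and 0.05 over all genes. The bulk mutants share their controls, as do the sorted mutants.

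**Figure D2:**
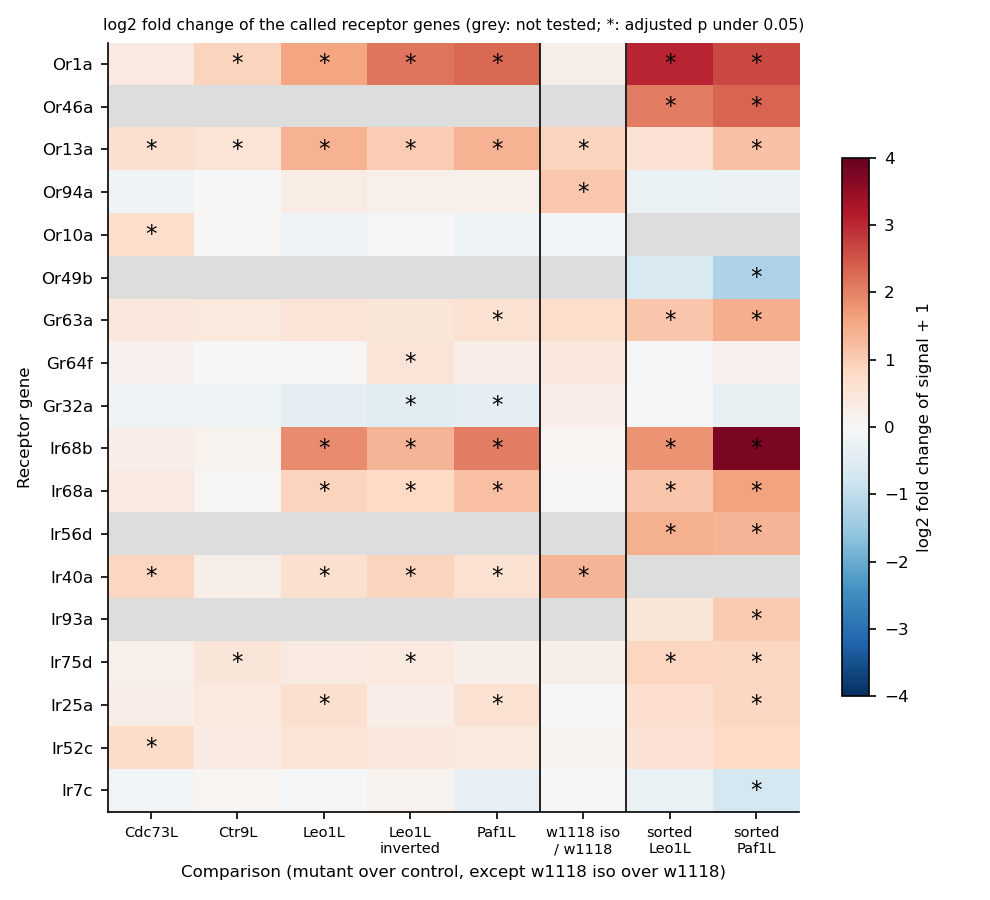
Log2 fold change of signal + 1 (colour) for the 18 receptor genes called in at least 1 of 8 comparisons (columns), mutants over controls except the column w1118 iso over w1118; stars mark an adjusted p under 0.05 and grey marks genes not tested in that table. Or1a, Ir68a and Ir68b are starred in all 5 Leo1L and Paf1L columns, and Or13a and Ir40a also in the column of the control stocks.

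Or1a, a larval odorant receptor gene, was at the limit of measurement in controls and above it in the Leo1L and Paf1L mutants. In bulk it read 2.4, 2.45 and 2.69 in Leo1L, 4.23, 4.73 and 3.59 in Leo1L inverted and 5.27, 4.15 and 5.03 in Paf1L, against 0.134, 0.195 and 0.52 in w1118 iso and 0.108, 0 and 0.179 in w1118. In Ctr9L it read 1.07, 1.54 and 0.993, and in Cdc73L 0.432, 0.526 and 0.542. Every library of Ctr9L, Leo1L, Leo1L inverted and Paf1L exceeded all 6 controls, and Cdc73L replicate 1 did not. The log2 fold change was 0.89 ± 0.16 in Ctr9L (SE, adjusted p = 5.0e-04), 1.57 ± 0.16 in Leo1L (4.6e-07), 2.13 ± 0.16 in Leo1L inverted (1.2e-08) and 2.30 ± 0.16 in Paf1L (4.8e-09). Cdc73L did not pass, at 0.35 ± 0.16 (adjusted p = 0.116), but passed in the test with no filter on low values (0.35 ± 0.12, 0.0487). In sorted spermatocytes Or1a read 6.75, 7.91 and 7.4 in Leo1L and 5.91, 4.07 and 6.2 in Paf1L, against 0, 0 and 0.0502 in controls, the last close to the value of a single read. On the log2 scale the change was 3.04 ± 0.27 in Leo1L (adjusted p = 4.1e-06) and 2.64 ± 0.27 in Paf1L (1.3e-05). With controls at or near 0 the size depends on the pseudocount: it was 3.92 and 3.49 with 0.5, and 1.30 and 1.04 with 5. All 6 calls were kept under every alternative run apart from the fold change limit, under which Ctr9L fell short.

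Or1a lies at X:315123-316566 on the plus strand, inside an intron of CG3777 (X:279703-350504) on the same strand, with no shared exon bases. CG3777 was raised in bulk Leo1L by 2.02 ± 0.20 on the log2 scale (adjusted p = 4.0e-07) and in Paf1L by 0.77 ± 0.20 (0.00657). In Leo1L inverted it did not pass (0.44 ± 0.20, adjusted p = 0.0956). In sorted cells CG3777 was raised by 1.35 ± 0.24 in Leo1L (0.00188) and by 2.46 ± 0.24 in Paf1L (1.1e-05). The nearest measured gene on the 5′ side, CG12470, ends 6188 bases away on the same strand and read 893 to 1071 in the 15 bulk mutant libraries against 634 to 715 in controls. It was raised in each mutant, by 0.45 to 0.60 on the log2 scale in bulk, by 0.74 in sorted Leo1L and by 0.57 in sorted Paf1L. Whether reads of intron or read-through RNA contribute to Or1a was not tested.

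Ir68b, an ionotropic receptor gene, showed the largest log2 fold change of any receptor tested. It read 4.74, 3.92 and 3.45 in bulk Leo1L, 2.47, 2.62 and 2.36 in Leo1L inverted and 3.95, 5.2 and 4.88 in Paf1L, against 0.185 to 0.595 in the 6 controls. It read 0.541 to 0.724 in Cdc73L and 0.175 to 0.901 in Ctr9L. The Leo1L and Paf1L groups stood clear of the controls, and Cdc73L and Ctr9L overlapped them. The log2 fold change was 1.89 ± 0.17 in Leo1L (adjusted p = 1.8e-07), 1.36 ± 0.17 in Leo1L inverted (9.7e-06) and 2.06 ± 0.17 in Paf1L (7.0e-08). It was 0.26 ± 0.17 in Cdc73L (0.294) and 0.15 ± 0.17 in Ctr9L (0.585). In sorted spermatocytes Ir68b read 21, 16.6 and 20.5 in Paf1L and 5.12, 3.61 and 3.93 in Leo1L, against 0.632, 0.258 and 0.636 in controls. On the log2 scale the change was 3.76 ± 0.25 in Paf1L (2.9e-07) and 1.79 ± 0.25 in Leo1L (2.7e-04). Ir68b (3L:12125487-12127394, minus strand) overlaps no annotated gene. CG34241, the nearest measured 5′ gene, lies 585 bases away on the opposite strand and changed by -0.40 to -0.21 in the bulk mutants, where its calls were all lowered, and passed no test in sorted cells. All 5 calls of Ir68b were kept under every alternative run.

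Ir68a, which serves moisture sensing in the antenna, was raised in the same groups by less. It read 6.1, 5.04 and 3.07 in bulk Leo1L, 6.28, 4.39 and 2.67 in Leo1L inverted and 6.58, 5.34 and 5.96 in Paf1L, against 1.46 to 3.05 in the 6 controls. Paf1L and Leo1L libraries all exceeded the controls, while Leo1L inverted replicate 3 did not. The fitted log2 fold change was 0.90 ± 0.25 in Leo1L (adjusted p = 0.0105), 0.81 ± 0.25 in Leo1L inverted (0.0194) and 1.21 ± 0.25 in Paf1L (0.00129). The Leo1L call was lost without its replicate 1 (0.73, adjusted p = 0.0778), and the Leo1L inverted call without its replicate 1 (0.57, 0.138) or 2 (0.79, 0.0605), and against w1118 iso alone (0.79, 0.054). In sorted cells Ir68a read 4.67, 3.44 and 3.96 in Leo1L and 7.36, 6.43 and 4.58 in Paf1L, against 1.59, 0.644 and 1.93 in controls, with no overlap. The log2 fold change was 1.11 ± 0.30 in Leo1L (0.021) and 1.60 ± 0.30 in Paf1L (0.00168). The sorted Leo1L call was lost without control replicate 2 (0.86, 0.0611) or Leo1L replicate 1 (1.02, 0.0795) or 3 (1.11, 0.075). scyl, the nearest 5′ gene, passed no test in any mutant.

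**Figure D3:**
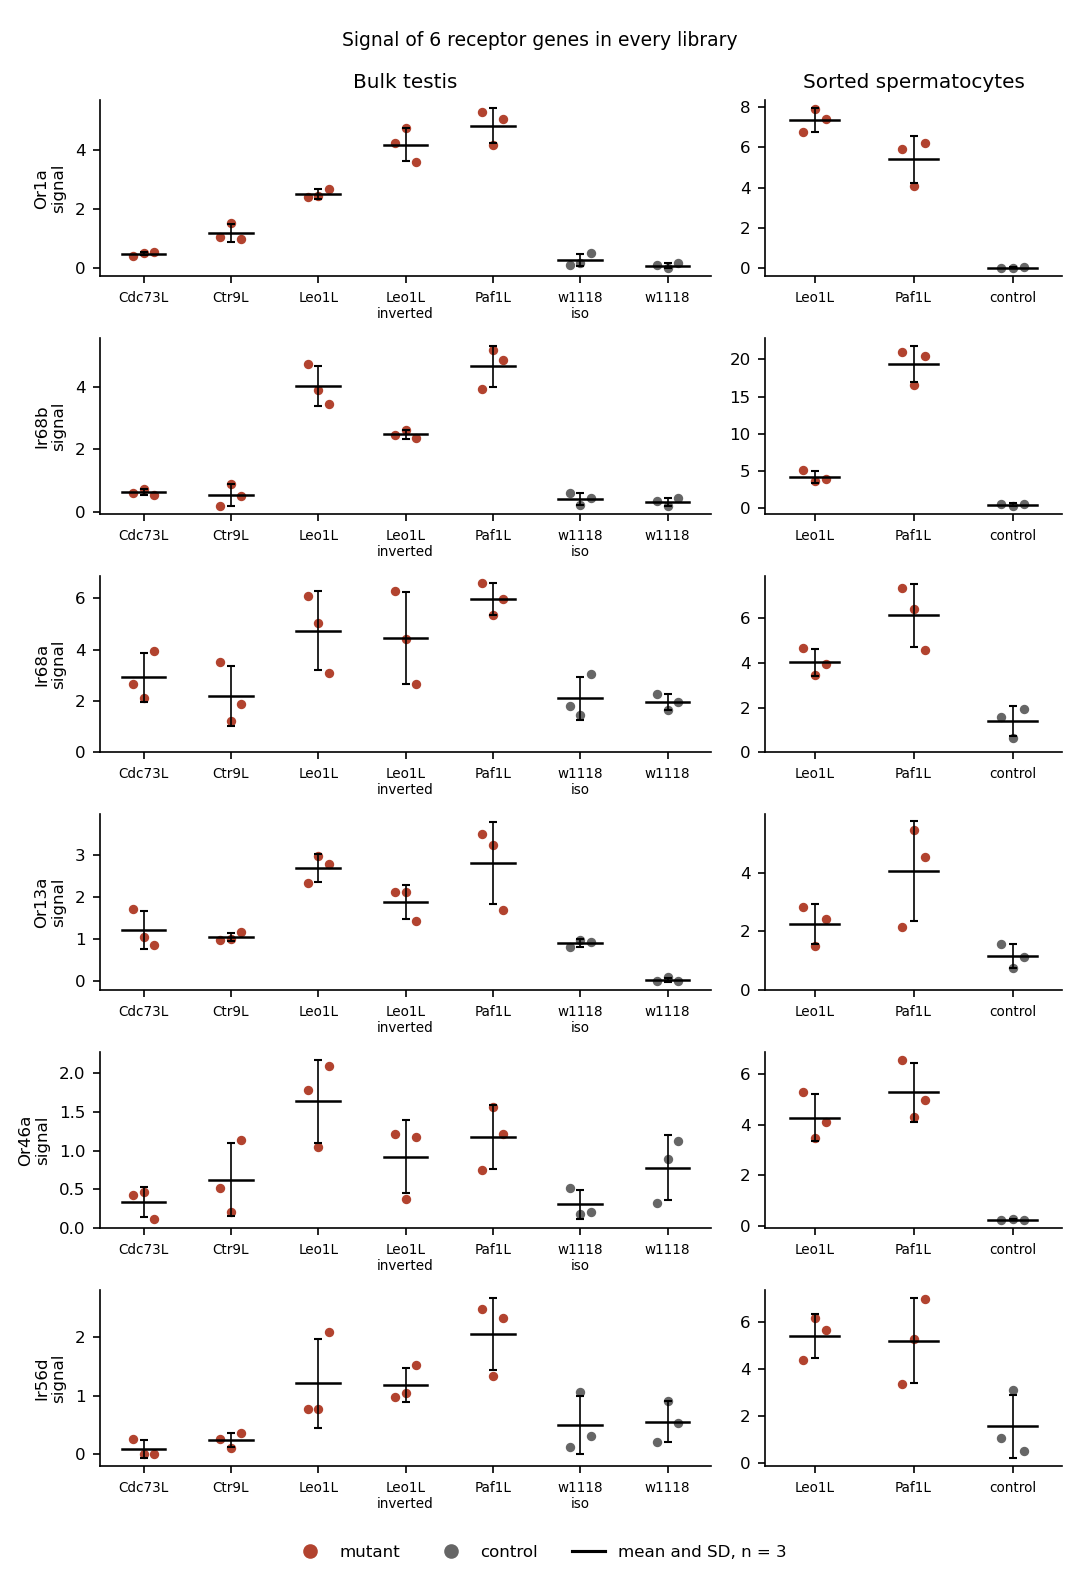
Signal of Or1a, Ir68b, Ir68a, Or13a, Or46a and Ir56d in each bulk library (left) and each sorted column (right), mutants in red to the left of controls in grey, with mean and SD (n = 3 per group); vertical axes differ between panels. Ir68b reads 16.6 to 21 in sorted Paf1L, 3.61 to 5.12 in sorted Leo1L and 0.258 to 0.636 in sorted controls. Among the bulk groups, Or13a is near 0 in w1118 alone.

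The other receptors of humidity and temperature sensing did not move as a block. Ir40a, which with Ir25a and Ir93a serves dry sensing, read 3 to 4.95 in w1118 iso, against 0.871 to 1.15 in w1118, a log2 difference of 1.35 ± 0.21 between the stocks (adjusted p = 4.6e-04). In the bulk mutants it read 2.2 to 5.83, inside or near the range of w1118 iso. Ir40a was called raised against both stocks together in Cdc73L (0.87 ± 0.18), Leo1L (0.64 ± 0.18), Leo1L inverted (0.90 ± 0.18) and Paf1L (0.61 ± 0.18). Against w1118 iso alone none of these passed: the log2 fold changes were 0.19, -0.04, 0.22 and -0.06, with adjusted p of 0.58, 0.912, 0.49 and 0.881. The Leo1L call was also lost without its replicate 3 (0.48, 0.0962), and the Paf1L call without its replicate 1 (0.43, 0.143) or 2 (0.60, 0.055). In sorted cells Ir40a averaged 0.949 ± 0.811 in Leo1L and 0.427 ± 0.259 in Paf1L, against 1.05 ± 1.02 in controls, and was not tested there. Ir93a rose in sorted Paf1L (1.65, 2.14 and 2.96 against 0.869, 0.128 and 0.791 in controls; log2 fold change 1.04 ± 0.34, adjusted p = 0.0378), and 5 of 6 fits that left out a column lost the call (0.81 to 1.18, adjusted p = 0.0506 to 0.112), as did quantile normalization (0.66, 0.195). Ir21a, the cool-sensing partner, had group means of 0.0662 to 0.579 in bulk and under 0.3 in sorted cells.

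Ir25a was raised in bulk Leo1L (2.6, 3.27 and 4.32) and Paf1L (3.99, 2.87 and 3.1), against 1.37 to 2.26 in the 6 controls. Both mutant groups lay above all controls. On the log2 scale it changed by 0.63 ± 0.18 in Leo1L (adjusted p = 0.0135) and 0.61 ± 0.18 in Paf1L (0.0167). Leaving out Leo1L replicate 3 (0.48, 0.0956) or Paf1L replicate 1 (0.51, 0.104) lost the call. In sorted cells Ir25a read 5.58, 4.23 and 6.55 in Paf1L and 6.41, 4.36 and 3.91 in Leo1L, against 2.79, 2.36 and 2.73 in controls. Paf1L passed (0.82 ± 0.26, adjusted p = 0.0372) and Leo1L did not (0.68 ± 0.26, 0.0989). The Paf1L call was lost in 5 of 6 fits that left out a column (0.70 to 0.85, adjusted p = 0.0615 to 0.116) and under quantile normalization (0.49, 0.219). Ir25a begins 35 bases downstream of tank on the same strand (2L:4830846-4835300, minus strand). tank was raised in bulk Ctr9L by 0.52 ± 0.09 (3.5e-04) and in Leo1L by 0.30 ± 0.09 (0.012). In Paf1L tank gave 0.08 ± 0.09 in bulk and 0.17 ± 0.13 in sorted cells, and passed neither test.

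In the main test Or13a, an odorant receptor for mushroom alcohols, was called in all 5 bulk mutants, the only receptor of the 27 to be so. With no filter on low values Or1a was called in all 5 too. Or13a was also called between the control stocks. It read 0.809, 0.969 and 0.942 in w1118 iso, against 0, 0.0909 and 0 in w1118 (log2 difference 0.89 ± 0.21, adjusted p = 0.0146; 0.86 and 0.0508 without w1118 iso replicate 2). In the mutants it read 2.32, 2.96 and 2.78 in Leo1L, 2.11, 2.12 and 1.42 in Leo1L inverted and 3.48, 3.23 and 1.68 in Paf1L, all above both stocks. It read 1.71, 1.06 and 0.858 in Cdc73L and 0.989, 0.992 and 1.17 in Ctr9L, close to w1118 iso. Against both stocks together the log2 fold change was 1.39 ± 0.18 in Leo1L (1.4e-05), 1.03 ± 0.18 in Leo1L inverted (3.2e-04) and 1.40 ± 0.18 in Paf1L (1.4e-05). Against w1118 iso alone it was 0.95 ± 0.21 (0.00262), 0.59 ± 0.21 (0.0494) and 0.96 ± 0.21 (0.00298). For Cdc73L and Ctr9L it was 0.64 ± 0.18 (0.0189) and 0.55 ± 0.18 (0.0384) against both stocks, and 0.19 ± 0.21 (0.573) and 0.10 ± 0.21 (0.811) against w1118 iso alone. Without Cdc73L replicate 1 the Cdc73L call was lost (0.48, 0.116), and the Ctr9L call was lost in 7 of 9 fits that left out a library (0.51 to 0.57, adjusted p = 0.0524 to 0.126). In sorted cells Or13a read 2.16, 5.44 and 4.54 in Paf1L and 2.84, 1.5 and 2.43 in Leo1L, against 1.58, 0.77 and 1.14 in controls. Paf1L passed (1.17 ± 0.34, 0.0219), and 4 of 6 fits without a column lost that call (0.97 to 1.18, adjusted p = 0.0552 to 0.0648), as did quantile normalization (0.83, 0.0848). Leo1L did not pass (0.58 ± 0.34, 0.285). Or13a (X:15974425-15976706, plus strand) overlaps no annotated gene.

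Other receptors differed between the control stocks. Or94a, a larval odorant receptor gene, read 7.48, 8.84 and 8.67 in w1118 iso, against 2.5, 5.24 and 2.85 in w1118 (1.09 ± 0.24, adjusted p = 0.00949; 0.93 and 0.0534 without w1118 replicate 1). It passed no test in any mutant against both stocks. Between the stocks 3 of 27 receptors were raised in w1118 iso (5.16% of all genes tested) and 0 were lowered (3.52%). Or49b had too low a bulk mean for that test. It read 0 to 0.438 in the 15 mutant libraries, 0 in all 3 w1118 iso libraries, and 1.3, 1.65 and 2.18 in w1118.

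Or46a and Ir56d were raised in sorted spermatocytes and were too low in bulk for the main test. Or46a, an odorant receptor of the maxillary palp, read 5.3, 3.47 and 4.1 in sorted Leo1L and 6.57, 4.3 and 4.98 in sorted Paf1L, against 0.233, 0.261 and 0.246 in controls, which is near the value of 3 reads. The fitted log2 fold change was 2.07 ± 0.28 in Leo1L (adjusted p = 2.1e-04) and 2.32 ± 0.28 in Paf1L (5.8e-05), kept under every alternative. In bulk it averaged 1.64 ± 0.533 in Leo1L and 1.18 ± 0.413 in Paf1L, against 0.306 ± 0.19 in w1118 iso and 0.78 ± 0.415 in w1118 (n = 3 each). The means of Leo1L inverted, Cdc73L and Ctr9L were under the detection limit of 1. Or46a lies at 2R:10139264-10142074 on the plus strand, covered in full by the antisense RNA asRNA:CR43467, which is not analysed here, so the strand of its reads is uncertain. CG12917 ends inside its first 4 bases on the same strand and was lowered in sorted Paf1L (-0.62 ± 0.13, 0.00344). gem, a grainyhead-family transcription factor gene 1792 bases upstream on the same strand, read 24.6, 14.3 and 18.4 in sorted Leo1L and 29.4, 36.5 and 30.9 in sorted Paf1L, against 5.18, 5.88 and 5.95 in controls. gem was raised there by 1.56 ± 0.20 in Leo1L (1.2e-04) and 2.31 ± 0.20 in Paf1L (2.9e-06). In bulk gem read 68.8 to 104 over all libraries and was raised in Leo1L alone (0.22 ± 0.08, adjusted p = 0.0378). Whether RNA of gem extends into Or46a was not tested.

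Ir56d, a taste receptor for fatty acids and carbonation, read 4.39, 6.2 and 5.69 in sorted Leo1L and 3.37, 5.29 and 7 in sorted Paf1L, against 1.09, 3.1 and 0.539 in controls. No mutant column fell within the control range. The log2 fold change was 1.43 ± 0.36 in Leo1L (adjusted p = 0.0154) and 1.35 ± 0.36 in Paf1L (0.0155). Leaving out a column lost the call in 4 of 6 fits for Leo1L (1.12 to 1.40, adjusted p = 0.0535 to 0.0697) and in 3 of 6 for Paf1L (1.04 to 1.26, adjusted p = 0.0502 to 0.0668). Quantile normalization also lost the Paf1L call (1.01, 0.0805). Gr63a, which with Gr21a forms the carbon dioxide receptor, read 3.18, 2.96 and 2.82 in sorted Leo1L and 4.55, 3.39 and 4.23 in sorted Paf1L, against 1.6, 0.517 and 0.545 in controls. It was raised by 1.12 ± 0.30 in Leo1L (0.0198) and 1.46 ± 0.30 in Paf1L (0.00308). The Paf1L call of Gr63a was kept in all 6 fits that left out a column, and the Leo1L call was kept in 1 of 6 (0.99 to 1.15 where lost, adjusted p = 0.0525 to 0.0715). In bulk Gr63a passed in Paf1L alone (0.60 ± 0.21, 0.0384), with overlap between the groups, and 5 of 9 fits without a library lost the call (0.51 to 0.59, adjusted p = 0.0588 to 0.139). Against w1118 iso alone it gave 0.25 in bulk Paf1L and did not pass (0.529). Its partner Gr21a read 0.0595, 0 and 0.343 in sorted Paf1L and 1.01, 0.0555 and 0.36 in sorted Leo1L, against 0, 0 and 0.462 in sorted controls.

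Ir75d was raised in both sorted mutants, at 32.1, 33.4 and 19.2 in Leo1L and 26.2, 22.3 and 32.9 in Paf1L, against 12.7, 11.7 and 20.8 in controls (0.87 ± 0.24, adjusted p = 0.0271, and 0.83 ± 0.24, 0.0239). Leo1L replicate 3 lay within the control range. Each call was lost in 4 of 6 fits without a column (0.72 to 0.77 for Leo1L, adjusted p = 0.0957 to 0.119, and 0.69 to 0.85 for Paf1L, 0.0552 to 0.0908). In bulk it was raised in Ctr9L (0.48 ± 0.14, 0.0183; 0.43 and 0.09 without Ctr9L replicate 1, 0.34 and 0.141 without Ctr9L replicate 3) and in Leo1L inverted (0.38 ± 0.14, 0.0428; lost in 6 of 9 such fits, 0.29 to 0.39, adjusted p = 0.0617 to 0.19). Against w1118 iso alone neither passed, at 0.36 in Ctr9L (0.128) and 0.27 in Leo1L inverted (0.246). COX6AL2, with which Ir75d shares most exon bases, went the other way. It was lowered in all 5 bulk mutants (-0.54 to -0.27) and in sorted Paf1L (-0.36 ± 0.09, adjusted p = 0.0129), and gave -0.20 ± 0.09 in sorted Leo1L (0.186). Prp6 passed no test in any mutant. How the authors' counting divided reads between Ir75d and COX6AL2 is not given in the sources used here.

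**Figure D4:**
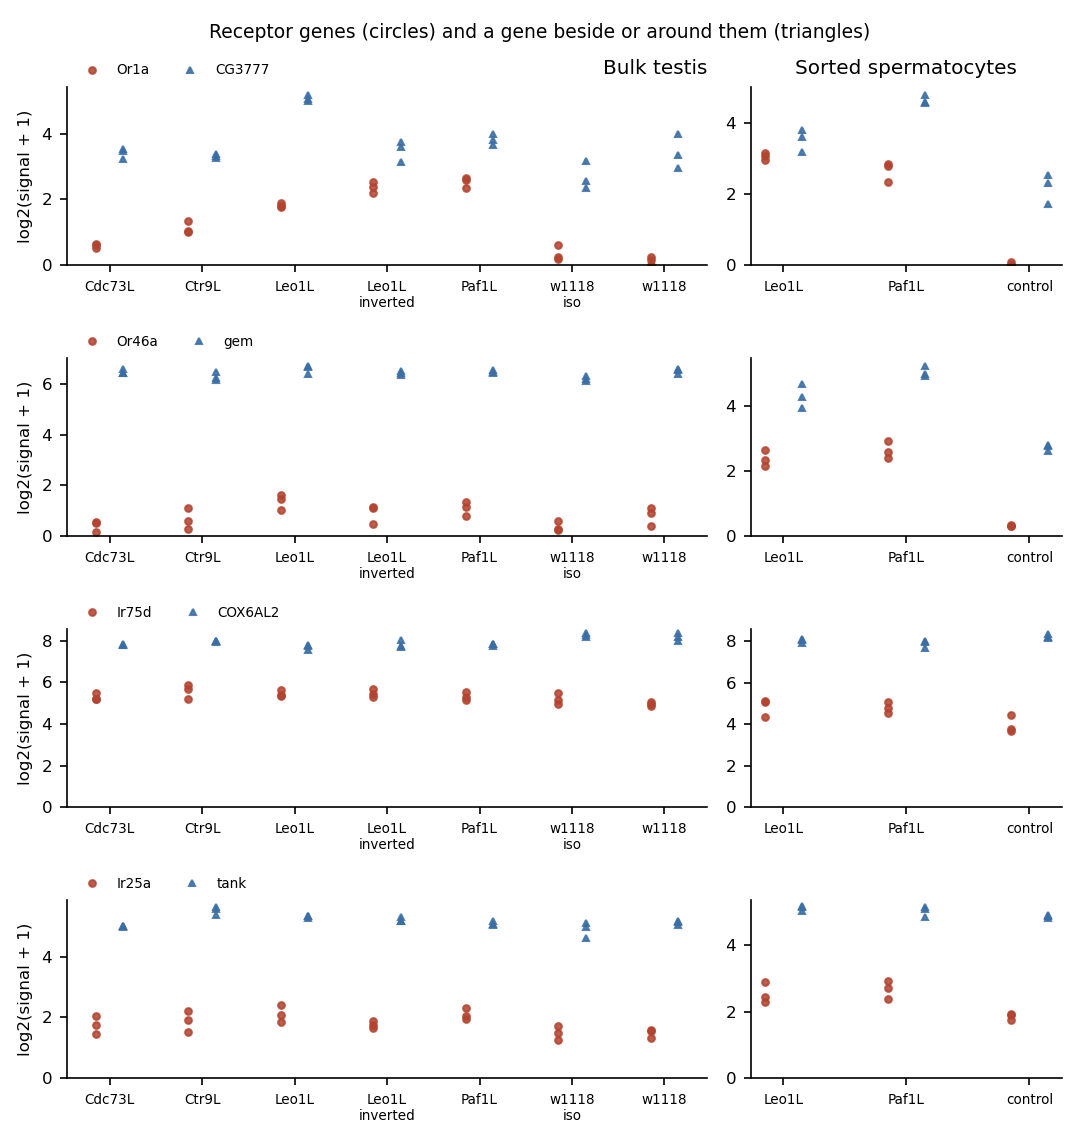
Log2(signal + 1) of 4 receptor genes (red circles) and of a gene around or beside each (blue triangles) in every bulk library (left) and sorted column (right), mutants left of controls. gem and Or46a are both higher in the sorted mutants than in sorted controls, while the group means of COX6AL2 are lower in the mutants, where those of Ir75d are not.

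The remaining calls were small or single. Gr32a, a receptor for bitter substances and a male pheromone, was lowered in Leo1L inverted (3.96, 4 and 3.58) and Paf1L (4.16, 3.16 and 4.39), against 4.41 to 6.28 in the 6 controls. The changes were -0.41 ± 0.14 (adjusted p = 0.0345) and -0.40 ± 0.14 (0.0414), lost in 6 and 7 of 9 fits that left out a library (-0.43 to -0.37, adjusted p = 0.0519 to 0.119 and -0.44 to -0.29, adjusted p = 0.0504 to 0.215). Against w1118 alone both were -0.28 and neither passed (0.207 and 0.228). Leo1L gave -0.36 ± 0.14 (0.0624). Gr64f, a coreceptor of sugar receptors, was raised in Leo1L inverted by 0.51 ± 0.19 (0.0452; lost in 6 of 9 fits, 0.38 to 0.58, adjusted p = 0.0515 to 0.161). Against w1118 iso alone Gr64f gave 0.29 (0.351). In Cdc73L, Or10a, a receptor for methyl salicylate, was raised by 0.69 ± 0.20 (0.0195; 0.69 and 0.0647 without Cdc73L replicate 2, 0.60 and 0.0957 without Cdc73L replicate 3) and Ir52c, a taste receptor gene of the legs, by 0.72 ± 0.25 (0.0429; lost in 6 of 9 fits, 0.60 to 0.69, adjusted p = 0.0637 to 0.174). All exon bases of Or10a are also exon bases of Gr10a, which is not analysed here. With the accessory gland score as a covariate none of the 4 Cdc73L calls passed: Ir52c gave 0.74 (adjusted p = 0.139), Or10a 0.69 (0.0882), Ir40a 0.66 (0.0544) and Or13a 0.53 (0.149).

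In sorted Paf1L 2 receptors were lowered. Ir7c read 12.5, 5.86 and 7.98 in Paf1L, against 16.4, 14.3 and 12.4 in controls (-0.70 ± 0.24, adjusted p = 0.0451). Paf1L replicate 1 lay within the control range, and 5 of 6 fits without a column lost the call (-0.80 to -0.48, adjusted p = 0.0604 to 0.154), as did rescaling to one total (-0.66, 0.0703). Or49b, an odorant receptor for aromatic compounds, read 0.453, 0.41 and 0.212 in Paf1L, against 1.21, 4.37 and 1.65 in controls (-1.22 ± 0.37, 0.0266). That call was lost in 3 of 6 such fits, with -0.84 (0.0966) without control replicate 2. Or49b also differed between the bulk control stocks, as given above. Ir41a, among the highest receptors in both tables, passed no test in any mutant, with log2 fold changes of -0.35 to 0.13 in bulk and of -0.06 and 0.02 in sorted cells.

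With no filter on low values 171 receptors could be tested in bulk and 169 in sorted cells, and the number of calls grew. Some calls of the main test were lost: Ir75d in both sorted mutants, and Ir25a and Ir7c in sorted Paf1L. Ir75d and Gr64f were lost in bulk Leo1L inverted. In bulk the receptors raised were 8 in Cdc73L (7.88% of all genes), 7 in Ctr9L (9.44%), 16 in Leo1L (12.8%), 14 in Leo1L inverted (12.8%) and 17 in Paf1L (11.8%). Those lowered were 2, 4, 1, 4 and 2 in that order (9.59%, 8.62%, 12.0%, 12.7% and 11.9%). In sorted cells 8 were raised in Leo1L (6.21%) and 13 in Paf1L (8.95%), with 0 and 2 lowered (4.00% and 7.66%). The median log2 fold change over these receptors was between 0.000 and 0.070 in every mutant.

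Among the receptors that passed only in that test, Ir11a read 1.25, 0.707 and 1.73 in bulk Leo1L, 2.25, 1.71 and 1.73 in Leo1L inverted and 1.16, 0.579 and 1.5 in Paf1L, against 0 to 0.238 in the 6 controls. Its log2 fold change was 1.04 ± 0.15 in Leo1L (adjusted p = 6.5e-05), 1.44 ± 0.15 in Leo1L inverted (2.2e-06) and 0.94 ± 0.15 in Paf1L (1.9e-04), and 1.12 ± 0.27 in sorted Paf1L (0.0183). Ir11a also passed in bulk Ctr9L (0.50 ± 0.15, 0.0277). Gr66a, a core receptor of bitter taste, read 1.58, 1.16 and 1.78 in bulk Paf1L and 0.965, 1.03 and 1.27 in Leo1L, against 0 to 0.366 in controls. Its log2 fold change was 1.07 ± 0.12 in Paf1L (6.1e-06) and 0.81 ± 0.12 in Leo1L (1.0e-04). By less, Gr66a was also raised in bulk Cdc73L (0.39 ± 0.12, 0.0383) and Ctr9L (0.38 ± 0.12, 0.0407). In Leo1L inverted Gr66a read 0.33, 0.286 and 0.45. The tandem genes Or65a and Or65b rose in bulk Paf1L by 0.99 ± 0.18 (5.6e-04) and 0.71 ± 0.13 (8.1e-04). In sorted Paf1L they rose by 1.07 ± 0.26 (0.0184) and 1.09 ± 0.22 (0.00931). Both also passed in bulk Leo1L (0.51 ± 0.18, 0.0457, and 0.46 ± 0.13, 0.0167). In Leo1L inverted they gave 0.63 ± 0.18 (0.0144) and 0.48 ± 0.13 (0.013). Or65a alone passed in sorted Leo1L (1.09 ± 0.26, 0.0239). For both genes the controls of both tables read at most 0.311, and close paralogs can share reads. Or49b and Ir7f were each lowered in 4 bulk mutants and were lower in w1118 iso than in w1118 (-1.42 ± 0.12 and -0.74 ± 0.11). Between the stocks 3 receptors were raised and 2 lowered in this test (3.98% and 2.90% of all genes). Gr23a, Gr33a, Gr39a, Gr58b, Gr92a, Ir67b, Ir67c, Ir7g, Ir84a, Ir94b, Or19b, Or22a, Or22b, Or2a, Or56a, Or67c and Or94b also passed in this test alone in at least 1 comparison, with log2 fold changes under 1 in size. In bulk Or46a (Leo1L, 0.79), Ir56d (Paf1L, 1.01) and Gr21a (Leo1L inverted, -0.67) also passed there.

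The effects of the mutants were set against each other in 10 bulk pairs and 1 sorted pair. Of 27 receptors, 4, 2 and 4 differed between Leo1L, Leo1L inverted or Paf1L and Cdc73L (6.29%, 5.34% and 6.72% of all genes), and 3, 2 and 4 between those groups and Ctr9L (5.28%, 2.86% and 4.91%). The other pairs gave 0 receptors: Ctr9L and Cdc73L (0.265% of all genes), Leo1L inverted and Leo1L (0.0366%), Paf1L and Leo1L (0.238%), and Paf1L and Leo1L inverted (0.128%). Or1a was higher in Leo1L, Leo1L inverted and Paf1L than in Cdc73L (1.23 to 1.95 on the log2 scale) and than in Ctr9L (0.68 to 1.41), with adjusted p of at most 0.0305. Ir68b was higher in the same groups than in Cdc73L (1.10 to 1.80) and than in Ctr9L (1.21 to 1.91), with adjusted p of at most 0.00232. At an unadjusted p under 0.05 there were 2 receptors in each of the 3 pairs among Leo1L, Leo1L inverted and Paf1L. Between Ctr9L and Cdc73L there were 4. The share of all genes at that limit is not given here, so these counts are not read as differences. In sorted cells Ir68b was higher in Paf1L than in Leo1L by 1.97 ± 0.25 (adjusted p = 0.0016). It was the only receptor of 34 to pass in that pair, where 0.221% of all genes were raised and 0.221% lowered.

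Of 19 listed partners of the receptors in the tables (Orco, Snmp and pickpocket genes, transcription factors of sensory neurons and others), 9 were tested in bulk and 8 in sorted cells. In bulk 1 was raised and 0 lowered in Cdc73L, 2 and 0 in Ctr9L, 2 and 1 in Leo1L, 2 and 2 in Leo1L inverted, and 2 and 2 in Paf1L. In sorted cells 1 was raised and 0 lowered in Leo1L, and 1 and 1 in Paf1L. The shares of all genes called in each comparison, given above with the receptors, apply to the gene lists here and below as well. rdgB, a phosphatidylinositol transfer protein of photoreceptors, was raised in all 5 bulk mutants (0.47 to 0.86) and in sorted Leo1L and Paf1L (0.49 and 0.44). onecut was raised in 4 bulk mutants (0.56 to 0.80), and was also higher in w1118 iso than in w1118 (0.78), where Snmp2 was lower (-0.91). pain, a TRP channel gene, was lowered in bulk Leo1L (-0.30), Leo1L inverted (-0.45) and Paf1L (-0.40). The transcription factor genes pdm3 and acj6 were lowered in fewer groups, pdm3 in bulk Leo1L inverted (-0.50) and Paf1L (-0.48), and acj6 in sorted Paf1L (-0.63).

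Of 49 odorant-binding protein genes, 19 were tested in bulk and 12 in sorted cells. In bulk 2 were raised and 0 lowered in Cdc73L, 0 and 0 in Ctr9L, 2 and 0 in Leo1L, 2 and 3 in Leo1L inverted, and 1 and 1 in Paf1L. Obp49a was raised in Cdc73L, Leo1L, Leo1L inverted and Paf1L (0.69 to 1.07). In sorted cells Obp56i was lowered in Leo1L (-0.57) and Paf1L (-0.80), and Obp44a (2.23) and Obp99a (2.07) were raised in Paf1L, where replicate 2 read 417 and 235 for them and the other columns 14.3 to 65.5.

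The summed signal of 15 neuron genes was 99.7 to 131 in bulk mutants against 94.6 to 122 in controls. In sorted cells it was 75.8 to 79.2 in mutants against 78.8 to 86.2 in controls. Much of the sorted sum was brp, with means of 37.4 in Leo1L, 31 in Paf1L and 55.9 in controls. The mean log2(signal + 1) of the 15 genes was 1.66 to 1.81, 1.74 to 1.80 and 1.51 to 1.59 in that order. Of the 12 tested in bulk, 2 were raised and 0 lowered in Cdc73L, 1 and 1 in Ctr9L, 2 and 0 in Leo1L, 1 and 0 in Leo1L inverted, and 1 and 2 in Paf1L. Of the 10 tested in sorted cells, 2 were raised and 1 lowered in each mutant. para, a voltage-gated sodium channel gene, was raised in all 5 bulk mutants (1.23 to 3.17) and in sorted Leo1L and Paf1L (2.37 and 2.69). ChAT, the enzyme of acetylcholine synthesis, was raised in bulk Leo1L (0.56) and in sorted Leo1L and Paf1L (1.25 and 1.05). brp, of the presynaptic active zone, was lowered in sorted Leo1L and Paf1L (-0.56 and -0.83) and in bulk Paf1L (-0.57). Of 5 glia genes, 4 were tested in each table. The 5 summed to 536 to 579 in sorted Leo1L and 471 to 568 in sorted Paf1L against 616 to 690.2 in sorted controls. Most of that sum was nrv2, with means of 555, 500.2 and 653 in that order. The mean log2(signal + 1) of the 5 genes was 2.29 to 2.82, 2.52 to 3.74 and 2.25 to 2.52 in the same order. nrv2 was lowered in sorted Leo1L and Paf1L (-0.23 and -0.38) and in bulk Leo1L and Leo1L inverted (-0.35 and -0.25). Eaat1, a glutamate transporter, was lowered in the bulk mutants other than Ctr9L (-1.07 to -0.73). moody was raised in bulk Cdc73L (0.34) and in sorted Paf1L (1.77). No neuron or glia gene of the lists was at 0 throughout, and the part of these cells in the receptor signal was not tested. In bulk samples, fewer cells of a type and less RNA per cell cannot be told apart.

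Or59b and Or59c, named after their values were seen, followed the accessory gland transcripts between bulk libraries. In the 4 libraries with an accessory gland score under 2, Or59b read 0.0771 to 0.724 and Or59c 0.0905 to 0.461. In the 17 others they read 0.429 to 5.17 and 0.861 to 6.16. Neither passed a test: in Cdc73L the log2 fold changes were -1.04 ± 0.45 (adjusted p = 0.108) and -1.13 ± 0.42 (0.0585). In sorted cells, where 14 accessory gland genes summed to 14.9 to 19.7 in mutants and 24.8 to 76.5 in controls against 28.5 to 3578 in bulk, Or59b read 0 to 0.886 and Or59c 0 to 0.197. Both genes lie inside CG43795 on the opposite strand, without shared exon bases. Muscle genes of the testis sheath were lowered in Ctr9L (9 of 10), Leo1L inverted (9) and Paf1L (6), and in neither Cdc73L nor Leo1L (0 of 10 each).

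**Figure D5:**
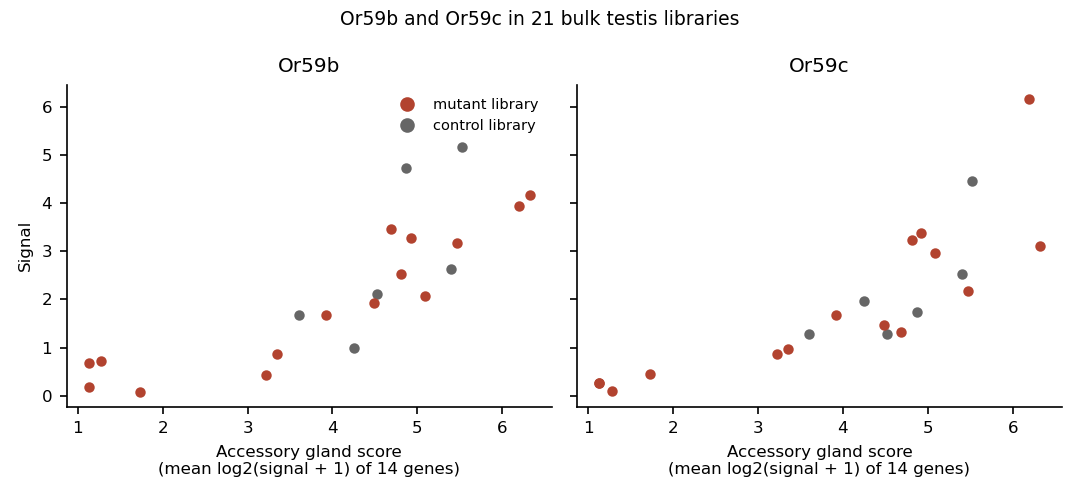
Signal of Or59b (left) and Or59c (right) against the mean log2(signal + 1) of 14 accessory gland genes in the 21 bulk libraries, mutants in red and controls in grey. Libraries with a score under 2 read at most 0.724 for Or59b and 0.461 for Or59c, and the highest values lie at scores above 4.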

How the data were processed

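RNA of bulk testis (21 libraries) and of sorted spermatocytes (9 columns joining 18 samples) had been sequenced. The authors deposited a table of normalized signal per gene for each experiment, which they named GeTMM. Per the submitters' processing notes, STAR, Salmon, edgeR 3.34.0, DESeq2 and the build dm6 were used; their roles and the strand setting are not given in the sources used here. Steps between low values did not depend on gene length, so the deposited signal is read as scaled reads without division by length. Only 54.1% to 86.9% of low values per bulk library and 75.3% to 85.3% per sorted column lay near whole multiples of the step, so no count test was used.

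Linear models were fitted to log2(signal + 1) with limma 3.58.1 in R 4.3.3 (group means, trended empirical Bayes) over all libraries of a table, for genes with a mean of at least 1, with Benjamini-Hochberg adjustment within each comparison. Bulk mutants were set against the average of the w1118 and w1118 iso means. P-values measure the spread between these samples, since separate cultures are not stated for bulk. The model was checked on simulated data. Positions came from Ensembl annotation 115 of BDGP6.54, the dm6 assembly; all 177 receptors were placed. Since each table had its own normalization, no test crossed the tables.

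The receptors and gene lists were chosen with earlier results of these data known. Receptors named with values are those called in any comparison, the 6 of highest mean per table, the coreceptors, and genes overlapping them or nearest on their 5′ side; those passing only without the filter are named as such. No sequence is shown, because none was used here.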

Additional observations from a re-analysis of the deposited data

Results flagged for a closer look

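These are receptors whose effect differed between mutants by a test of the difference itself (limma, adjusted p under 0.05 over all genes tested). The bulk mutants share controls, so the differences are given directly between mutant groups on the log2 scale. Ir68b was higher than in Cdc73L by 1.63 in Leo1L, 1.10 in Leo1L inverted and 1.80 in Paf1L, and higher than in Ctr9L by 1.74, 1.21 and 1.91. Or1a was higher than in Cdc73L by 1.23, 1.78 and 1.95 in the same groups, and higher than in Ctr9L by 0.68, 1.24 and 1.41. Or13a was higher than in Cdc73L by 0.75 in Leo1L and 0.76 in Paf1L, and higher than in Ctr9L by 0.84 and 0.86. Ir68a was higher in Paf1L than in Ctr9L by 1.18. Or10a was lower than in Cdc73L, by -0.84 in Leo1L and -0.87 in Paf1L. In sorted spermatocytes Ir68b was higher in Paf1L than in Leo1L by 1.97. Libraries of the groups did not overlap in any of these except Or13a in Paf1L and Cdc73L. The accessory gland score was 1.13, 1.28 and 3.35 in Cdc73L and 4.69 to 4.92 in Leo1L. The differences between mutants fitted with that score as a covariate are not given here. Groups held 3 samples, and fits of these differences without single libraries are not given here.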

How the results depend on the processing

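Of 51 calls of a receptor in a comparison with controls or between stocks, 20 were kept under every alternative run, apart from the fold change limit, and without any 1 library, 29 were lost without some library and 24 under some other setting. The 2 that reversed were Ir40a in bulk Leo1L (-0.04) and Paf1L (-0.06) against w1118 iso alone. The 20 include every call of Or1a, Ir68b and Or46a, of which the fold change limit removed Or1a in Ctr9L (0.89).

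The number of receptors called was 4 in Cdc73L, 3 in Ctr9L, 6 in Leo1L, 8 in Leo1L inverted, 8 in Paf1L, 3 between the stocks, 7 in sorted Leo1L and 12 in sorted Paf1L. Shares over all genes are given above for these counts, for the fold change limit and for no filter. For the other settings in this section they are not given, so a change in count is not read as particular to the receptors. A log2 fold change of at least 1 left 0, 0, 3, 3 and 4 in the 5 bulk mutants. With no filter on low values there were 10, 11, 17, 18 and 19, and 5 between the stocks. A pseudocount of 5 left 2 in Cdc73L. Against w1118 alone Ctr9L had 5, and against w1118 iso alone Cdc73L had 1, Ctr9L 1 and Leo1L inverted 5. With the 6 controls as 1 group, Cdc73L had 2 and Paf1L 5. That grouping lost Ir40a in Cdc73L (0.87, adjusted p = 0.0666), Leo1L (0.64, 0.157) and Paf1L (0.61, 0.179). The accessory gland score as a covariate left 0 in Cdc73L, where the 4 log2 fold changes were 0.53 to 0.74 and the adjusted p 0.0544 to 0.149. Leaving out the 4 libraries with low scores, chosen after seeing the data, gave 1 in Cdc73L, which then had 1 library assumed to vary like the other groups, 5 in Leo1L inverted and 4 in Paf1L.

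Leaving out 1 library gave 2 to 4 in Cdc73L (2 without its replicate 2 or 3), 1 to 3 in Ctr9L (1 without its replicate 1 or 3), 4 to 7 in Leo1L, 5 to 7 in Leo1L inverted (5 without its replicate 1 or 2), 5 to 8 in Paf1L (5 without its replicate 1), and 2 to 4 between the stocks. In sorted cells it gave 4 to 5 in Leo1L (4 without any 1 of the Leo1L columns) and 5 to 9 in Paf1L (5 without its replicate 3, 6 and 7 without control replicates 2 and 3).

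Same-numbered libraries did not deviate together: the correlation of deviations had a median of -0.007 over 63 bulk pairs and 0.078 over 9 sorted pairs. With replicate number as a block the counts were 4, 3, 7, 6 and 7 in the 5 bulk mutants, 3 between the stocks, and 7 and 11 in sorted Leo1L and Paf1L. The calls that the block removed were Ir52c in Cdc73L (adjusted p = 0.0525), Gr64f (0.0594) and Ir75d (0.0582) in Leo1L inverted, Gr63a in bulk Paf1L (0.0545) and Ir93a in sorted Paf1L (0.0501), with log2 fold changes as in the fit without it.

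Detected receptors numbered 71 in bulk and 68 in sorted cells at a group mean of at least 0.5, 22 and 22 at 2, and 24 in sorted cells when every column of a group had to reach 1. Leaving out a column in turn, chosen after seeing the data, gave 38 to 39 in sorted Paf1L, 29 to 34 in sorted Leo1L and 24 to 28 in sorted controls. A signal of 1 rests on 7.8 to 20.7 reads, so detection near it is limited by depth.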
